A study of Mus musculus with 24 samples.

Results

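Whole tumors grown from Sun1 knockout CT26 cells were compared with the tumor cells purified from such tumors. CT26 is a mouse colon carcinoma line from the BALB/c strain, so it grows in immunocompetent BALB/c mice without rejection by strain differences. The comparison uses 9 of the 24 RNA-seq libraries of the series: 7 of whole knockout tumors and 2 of purified knockout tumor cells, chosen by their titles. Both groups carry the Sun1 knockout, were injected under the skin of the right flank and were collected at day 14. For the purified libraries the tumors were made into single cells and the tumor cells were isolated with a commercial kit before RNA was extracted. A library of cultured knockout cells (n = 1) serves as a reference with no host cells, and 8 tumors and 2 purified libraries of control line 1, labelled wild type, serve for the comparison of genotypes. The purified cells of control line 2 (n = 2), also labelled wild type, are quoted as values. The labels name 1 knockout line, give neither the age nor the sex of the mice, and do not say whether replicates came from separate animals. The p-values therefore measure the spread between these libraries, which may in part be technical.

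A solid tumor holds cancer cells together with host macrophages, lymphocytes, vessels and fibroblasts, all of which contribute RNA to a whole-tumor library. Isolation of tumor cells usually works by removing cells that carry surface proteins of leukocytes, vessels, red cells and stroma, which leaves the cancer cells untouched. Setting a tumor beside its purified cells thus separates genes read mainly from host cells from genes read in the cancer cells themselves. Sun1 is an inner nuclear membrane protein of the LINC complex, which ties the nuclear lamina to the cytoskeleton.

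The 9 libraries held 16032223 to 22424608 expected counts each. Values are given as CPM, the share of a library's counts scaled by TMM, and differences as log2 fold changes of tumors minus purified cells, so that a positive value means higher in whole tumors. Sun1 itself read 51.1 to 65.4 CPM (median 58.5) in the knockout tumors and 50.3 and 54.9 CPM in their purified cells (log2 fold change 0.14 ± 0.10 SE, edgeR adjusted p = 0.243), against 179.7 ± 7.33 CPM (SD, n = 8) in tumors and 172 and 209.8 CPM in purified cells of control line 1. Both knockout groups were thus lower than the control groups, with transcript still present, and did not differ from each other past the threshold, except with upper quartile scaling. Knockout tumor 6 stood apart from the other tumors, with a mean Pearson r over log2 CPM of 0.972 with the other 6, while the rest had 0.978 to 0.982. Of 14569 genes tested with edgeR's quasi-likelihood test, 4536 were higher in tumors and 3683 lower at an adjusted p under 0.05. These are 31.1% and 25.3% of the genes tested, and the counts were 4857 and 3921 without knockout tumor 6. All 7 tumors lay above both purified libraries for 4667 genes (32.0%) and below both for 3853 (26.4%). Because 56.4% of all tested genes were called, the size of a difference separates gene groups better than its call does. Counts of called list members below are to be read beside the 31.1% and 25.3%.

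The sizes were unequal on the 2 sides. At least an 8-fold difference was reached by 1746 of the genes called higher in tumors and by 1 of those called lower, and at least a 2-fold difference by 2679 and 221, which are 18.4% and 1.52% of the genes tested. Among the 1746 genes, 96.8% were under 1 CPM in the cultured knockout cells, compared with 24.2% of all genes tested and 0.679% of the genes called lower in tumors. The differences of at least 8-fold toward tumors were thus mostly in genes that the cultured line hardly expressed. Nearly all genes called lower in tumors were expressed in it. Of the 3529 tested genes under 1 CPM in culture, 1691 were among the 1746. In bulk RNA, fewer cells of a type and less RNA per cell cannot be told apart. Purified cells were also dissociated and handled, so removal of host cells and handling cannot be told apart either. Members of a host cell list that passed the count filter did so mostly through the tumors and could hardly come out lower, so their counts below describe the lists and are not support for them.

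**Figure D1:**
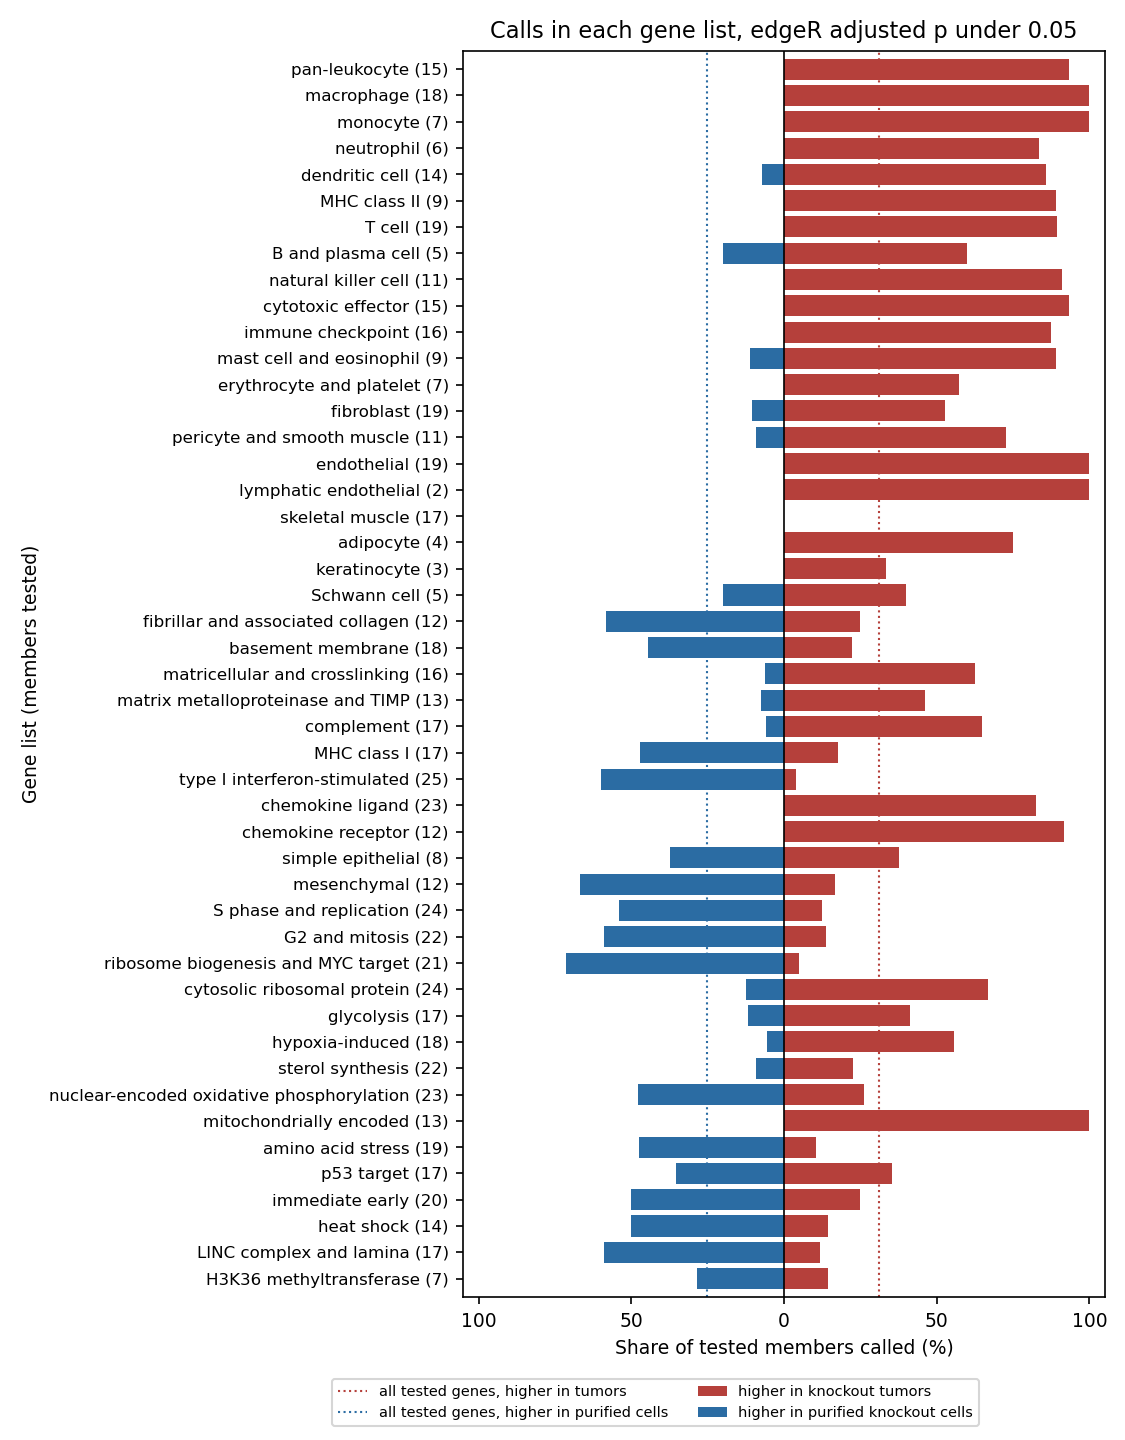
Share of the tested members of each gene list called higher in knockout tumors (red, to the right) or higher in purified knockout cells (blue, to the left), with the number tested in parentheses and the shares over all tested genes as dotted lines (31.1% and 25.3%). The leukocyte, endothelial and mitochondrially encoded lists lie almost wholly on the tumor side, and the interferon-stimulated, mesenchymal and ribosome biogenesis lists mainly on the side of the purified cells.

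Pan-leukocyte genes were higher in tumors for nearly every member tested. Ptprc, which encodes CD45, the phosphatase found on all nucleated blood cells, read 158 to 243 CPM (median 173) in the tumors and 0.453 and 0.574 CPM in the purified cells. All 7 tumors lay above both purified libraries, whose level was close to the 0.586 CPM of cultured cells, and the difference was large (log2 fold change 8.51 ± 0.30 SE, edgeR adjusted p = 3.6e-10). Lcp1, an actin-bundling protein of leukocytes, fell from 203 to 322 CPM in tumors to 0.77 and 1.197 CPM in purified cells (log2 fold change 8.05 ± 0.24 SE, edgeR adjusted p = 3.22e-11). Rac2, a GTPase of blood cells, showed the same order (log2 fold change 8.29 ± 0.30 SE, edgeR adjusted p = 8.6e-11), as did Ikzf1, a transcription factor of lymphoid and myeloid cells (log2 fold change 7.13 ± 0.32 SE, edgeR adjusted p = 4.63e-10). Of the pan-leukocyte list, 14 of 15 tested members were higher in tumors, with a median log2 fold change of 7.56 against 0.08 over all genes tested. The exception was Arhgdib, a regulator of small GTPases also abundant in the cultured line at 363 CPM, which read 267 to 301 CPM in tumors and 329.7 and 309.7 CPM in purified cells (log2 fold change -0.17 ± 0.08 SE, edgeR adjusted p = 0.0676; 0.0403 without tumor 6).

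Macrophage genes were higher in tumors for every member tested. C1qa, a chain of the complement starter C1q that tissue macrophages secrete, read 249 to 607 CPM (median 351) in tumors and 1.18 and 1.05 CPM in purified cells (log2 fold change 8.43 ± 0.58 SE, edgeR adjusted p = 3.91e-06). All 7 tumors were far above both purified libraries, and the cultured library read 1.27 CPM. Adgre1, the F4/80 antigen, read 51.8 to 166 CPM (median 113) against 0.272 and 0.622 CPM (log2 fold change 7.98 ± 0.76 SE, edgeR adjusted p = 4.52e-05). Csf1r, the receptor on which macrophage survival depends, was equally separate at 43.2 to 149.6 CPM against 0.181 and 0.574 CPM. The scavenger receptor Msr1 (log2 fold change 9.20 ± 0.36 SE, edgeR adjusted p = 2.95e-09), the Fc receptor Fcgr1 (log2 fold change 7.41 ± 0.31 SE, edgeR adjusted p = 4.47e-09) and the calcium-binding Aif1 (log2 fold change 7.67 ± 0.38 SE, edgeR adjusted p = 4.1e-08) all rose in the tumors. Trem2, a lipid-sensing receptor, left 3 counts in the purified cells (ratio 408, exact 95% counting interval 139 to 1979). Of the macrophage list, 18 of 18 tested members were higher in tumors, with 0.379% of the tumor level left in purified cells at the median gene and 0.248% in culture.

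Monocyte genes were also higher in tumors, though 2 of the 7 tested kept more of their level in purified cells. Ccr2, the receptor that brings monocytes into tissue, read 79.99 to 149.7 CPM (median 118) in tumors and 0.544 and 0.622 CPM in purified cells (log2 fold change 7.68 ± 0.39 SE, edgeR adjusted p = 8.76e-08). Ly6c2, a surface protein of inflammatory monocytes that interferon also induces, kept 8.53% of its tumor level in the purified cells, at 5.35 and 4.4998 CPM (log2 fold change 3.55 ± 0.30 SE, edgeR adjusted p = 2.99e-06). Plac8, a gene of monocytes and other leukocytes that was named after its values were seen, kept 68.9%, with 153 to 205 CPM in tumors, 129 and 117 CPM in purified cells and 49.2 CPM in culture (log2 fold change 0.53 ± 0.10 SE, edgeR adjusted p = 0.000449). Neutrophil genes were scarce in these tumors. S100a8, which neutrophils hold in large amounts, read at most 0.632 CPM and was not tested, and Csf3r, the G-CSF receptor, read 5.26 to 17.6 CPM with 3 counts in the purified cells (ratio 173, exact 95% counting interval 59.2 to 842). Among the 13 neutrophil genes 6 passed the count filter, of which 5 were higher in tumors, and 3 without purified replicate 1.

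T cell and natural killer genes were mostly near 0 in purified cells, with 17 of 19 and 10 of 11 tested members higher in tumors. Cd3e, a chain of the T cell receptor complex, read 5.31 to 11.4 CPM (median 7.97) in tumors against 0.0453 and 0.0479 CPM in purified cells, where 2 counts were left in all (ratio 174, exact 95% counting interval 48.01 to 1438). Cd8a, the coreceptor of cytotoxic T cells, read 28.4 to 59.9 CPM (median 46.1) against 0.0453 and 0.0479 CPM (ratio 981, exact 95% counting interval 271 to 8102, edgeR adjusted p = 1.28e-07). Cd4, the coreceptor of helper T cells, read 1.16 to 4.57 CPM in tumors and was higher there than in purified cells (edgeR adjusted p = 0.000138). The kinase Lck, which starts T cell receptor signaling, rose as well (log2 fold change 6.35 ± 0.29 SE, edgeR adjusted p = 4.59e-10). Tcf7, a factor of naive and stem-like T cells, was 1 of the 2 T cell genes not called, at 1.26 to 2.33 CPM in tumors and 2.13 and 1.39 CPM in purified cells (log2 fold change -0.06 ± 0.34 SE, edgeR adjusted p = 0.899). The median over the T cell list was 7.14, or 6.24 with genes of 3 or fewer purified counts set to their bound or ratio.

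Genes of cell killing were higher in tumors with 1 exception in their list. Nkg7, a granule protein of killer cells, read 24.96 to 48.8 CPM (median 35.5) in tumors and left 1 count in the purified cells (ratio 1546, exact 95% counting interval 277 to 61072, edgeR adjusted p = 1.47e-08). Ifng, which encodes interferon gamma, read 7.73 to 11.5 CPM in tumors and 0 in both purified libraries, so that it was at least 137-fold higher in tumors (edgeR adjusted p = 4.47e-09). Fasl, the ligand of a death receptor, was at least 61.3-fold higher (edgeR adjusted p = 4.03e-07) and Tbx21, the factor of type 1 lymphocytes, at least 46.99-fold higher (edgeR adjusted p = 1.87e-06). The granzymes Gzmc (17.1 to 295 CPM, log2 fold change 9.99 ± 1.98 SE, edgeR adjusted p = 0.00372), Gzmd (6.81 to 462 CPM, log2 fold change 9.46 ± 2.29 SE, edgeR adjusted p = 0.00966) and Gzmf (7.34 to 392 CPM, log2 fold change 9.85 ± 2.33 SE, edgeR adjusted p = 0.00864) spread most among the tumors. Knockout tumor 1 was the lowest of the 7 for each of these granzymes, and the calls of Gzmd and Gzmf were lost without purified replicate 1 (adjusted p = 0.0744 and 0.0689) or replicate 2 (0.0669 and 0.0628). Ncr1, the natural killer receptor NKp46, left 1 purified count (ratio 416, exact 95% counting interval 74.6 to 16462), and so did Klrd1, which encodes CD94 (ratio 992, exact 95% counting interval 178 to 39210.4). Il2rb, the interleukin 2 and 15 receptor chain, read 57.6 to 88.2 CPM against 0.498 and 0.287 CPM (log2 fold change 7.48 ± 0.28 SE, edgeR adjusted p = 2.38e-10). Ccl5, a chemokine of activated T cells, was the exception in the cytotoxic list at 10.5 to 17.7 CPM in tumors, 14.2 and 14.9 CPM in purified cells and 4.25 CPM in culture (log2 fold change -0.25 ± 0.18 SE, edgeR adjusted p = 0.247; 0.0397 without tumor 5).

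Mast cell genes were also widely separated, with 1 member on the other side. Cpa3, a mast cell carboxypeptidase, read 23.3 to 47.5 CPM (median 41.5) against 0.181 and 0.144 CPM (log2 fold change 7.78 ± 0.59 SE, edgeR adjusted p = 2.42e-06), and Cma1, a chymase, left 2 purified counts (ratio 897, exact 95% counting interval 248 to 7412). Kit, the stem cell factor receptor, was at 0 in both purified libraries and at least 158-fold higher in tumors. Gata2 was the member on the other side (log2 fold change -0.64 ± 0.11 SE, edgeR adjusted p = 0.000174), a factor of mast cells that the cultured line also expressed at 39.7 CPM. Of the dendritic cell genes 12 of 14 were higher in tumors and 1 lower. Xcr1, the receptor of cross-presenting dendritic cells, left 1 purified count (ratio 258, exact 95% counting interval 46.2 to 10200.3), while Fscn1, an actin bundler of mature dendritic cells and of many cancer cells, was higher in purified cells (log2 fold change -1.09 ± 0.08 SE, edgeR adjusted p = 3.98e-08) and stood at 365 CPM in culture. B and plasma cell genes did not follow this order as a group: 5 of 11 passed the count filter, of which 3 were higher in tumors and 1 lower. Cd79a, a chain of the B cell receptor complex, was at no more than 0.564 CPM in any tumor. The lower one was Pax5, a factor of B cells that was named after its values were seen, at 0.479 to 1.74 CPM in tumors and 2.63 and 1.77 CPM in purified cells (log2 fold change -1.39 ± 0.44 SE, edgeR adjusted p = 0.0147), a call lost without purified replicate 1 (adjusted p = 0.181).

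MHC class II genes, which usually mark antigen-presenting cells, were mostly higher in tumors. H2-Ab1, a class II chain, read 56.3 to 166 CPM (median 118) in tumors and 0.68 and 1.24 CPM in purified cells (log2 fold change 6.88 ± 0.78 SE, edgeR adjusted p = 0.000154). H2-Aa had 0 purified counts and was at least 39.9-fold higher in tumors. The peptide loader H2-DMa kept 9.04% of its tumor level (log2 fold change 3.47 ± 0.48 SE, edgeR adjusted p = 0.000239) against 1.56 CPM in culture. The class II list had 8 of 9 tested members higher in tumors and a median of 4.02% remaining, above the 0.241% of culture.

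Chemokines, their receptors and complement proteins were mostly higher in tumors. Cxcr6, a receptor of resident T cells, read 15.4 to 32.9 CPM (median 25.96) in tumors and 0.0906 and 0.0957 CPM in purified cells (log2 fold change 8.01 ± 0.46 SE, edgeR adjusted p = 3.34e-08). Of the chemokine receptors 11 of 12 were higher in tumors, and of the ligands 19 of 23. Ccl4, a chemokine of activated leukocytes, read 6.12 to 11.3 CPM against 0.181 and 0.383 CPM (log2 fold change 4.98 ± 0.36 SE, edgeR adjusted p = 5.08e-08). Ccl2, the ligand of Ccr2, differed in that purified cells kept 36.5% of its tumor level, at 26.1 and 39.4 CPM (log2 fold change 1.45 ± 0.25 SE, edgeR adjusted p = 0.000756), though culture read only 0.488 CPM. Complement properdin, Cfp, was higher in tumors (log2 fold change 7.16 ± 0.43 SE, edgeR adjusted p = 4.96e-07), while C1ra, a protease of the C1 complex, was higher in purified cells at 145 and 164 CPM against 84.03 to 125 CPM (log2 fold change -0.64 ± 0.13 SE, edgeR adjusted p = 0.00086). The complement list had 11 of 17 members higher in tumors. The exhaustion receptor Havcr2, or TIM-3, stood for the checkpoint list (log2 fold change 6.26 ± 0.23 SE, edgeR adjusted p = 6.42e-11), where 14 of 16 were higher in tumors.

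Endothelial genes were higher in tumors for every listed member. Pecam1, the CD31 adhesion protein of endothelium, read 41.7 to 58.4 CPM (median 51.97) in tumors and 0.181 and 0.239 CPM in purified cells (log2 fold change 7.87 ± 0.24 SE, edgeR adjusted p = 1.84e-11). The 7 tumors were close together and none approached the purified level. Cdh5, the cadherin of endothelial junctions, read 8.96 to 25.8 CPM against 0.136 and 0.0957 CPM (log2 fold change 7.12 ± 0.57 SE, edgeR adjusted p = 9.96e-07). Esam, another junction protein, kept 3.32% (log2 fold change 4.87 ± 0.35 SE, edgeR adjusted p = 5.38e-08), and Egfl7 (ratio 427, exact 95% counting interval 76.4 to 16866) and Tie1 (ratio 285, exact 95% counting interval 50.96 to 11257) each left 1 purified count. All 19 endothelial genes on the list were tested and higher in tumors, with a median of 6.55. Prox1, the factor that defines lymphatic endothelium, read at most 0.107 CPM in any tumor and was not tested, whereas Flt4, a lymphatic growth factor receptor, read 1.003 to 2.16 CPM with 0 purified counts (at least 24.2-fold higher). The pericyte gene Rgs5 (ratio 183, exact 95% counting interval 62.5 to 888) and the adhesion protein Mcam (ratio 342, exact 95% counting interval 117 to 1658) each left 3 purified counts. Pdgfrb, the receptor used to mark pericytes, instead was higher in purified cells at 137 and 125 CPM against 80.9 to 97.9 CPM (log2 fold change -0.61 ± 0.08 SE, edgeR adjusted p = 2.11e-05), and the cultured line read 69.7 CPM.

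**Figure D2:**
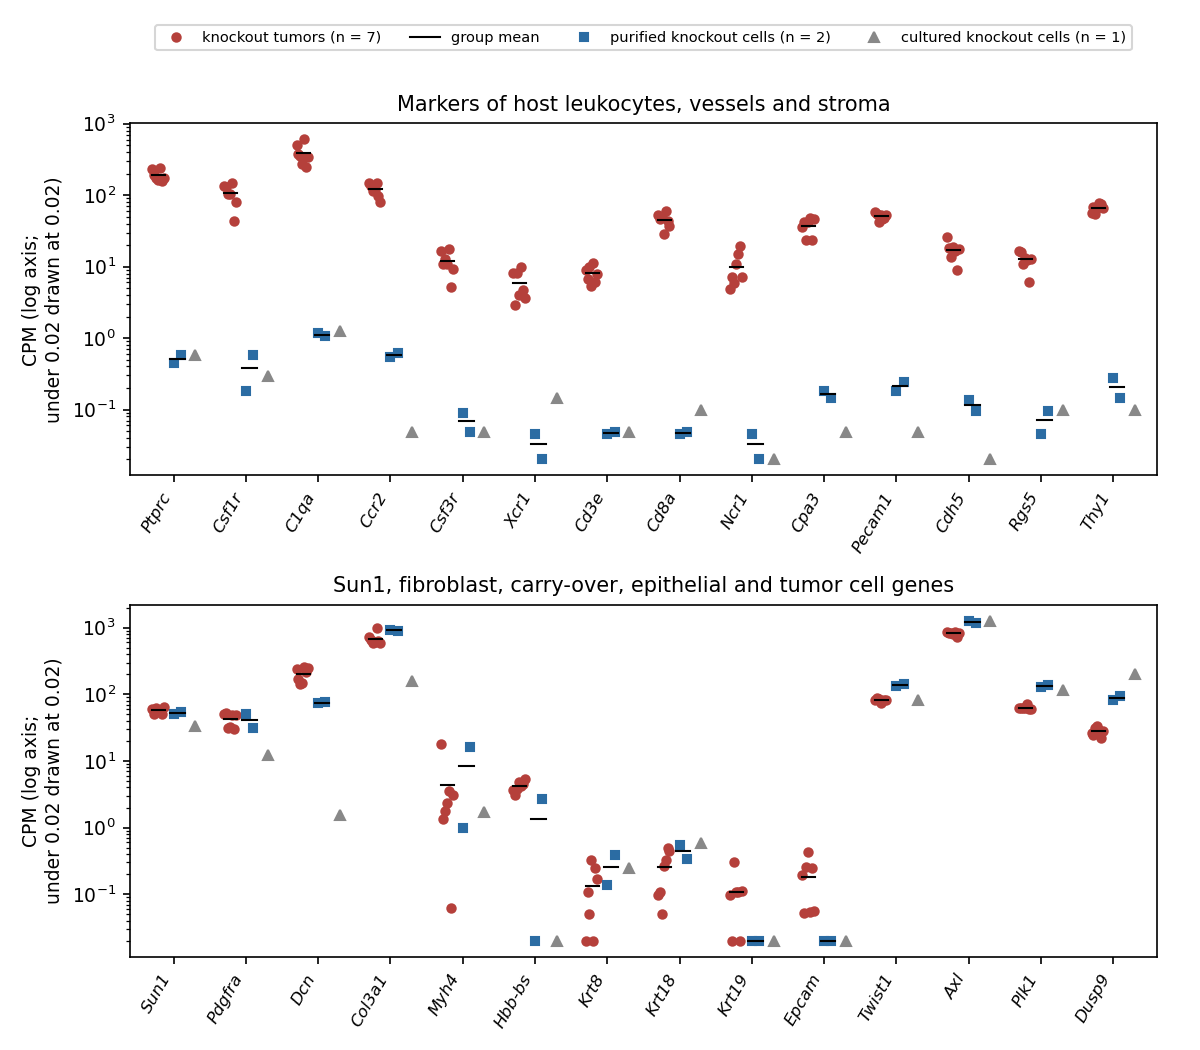
CPM on a log axis for marker genes in each of the 7 knockout tumors (red), the 2 purified knockout libraries (blue) and the cultured knockout library (grey), with group means as bars and values under 0.02 drawn at 0.02. Ptprc lies at 158 to 243 CPM in tumors and 0.453 and 0.574 CPM in purified cells, while Sun1 and Pdgfra overlap between the groups.

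Fibroblast genes split. Thy1, the CD90 surface protein, read 54.3 to 77.4 CPM (median 66.7) in tumors and 0.272 and 0.144 CPM in purified cells (log2 fold change 8.26 ± 0.28 SE, edgeR adjusted p = 3.22e-11). Mfap5, a microfibril protein (log2 fold change 5.17 ± 0.39 SE, edgeR adjusted p = 1.76e-07), and the surface peptidase Dpp4 (log2 fold change 5.86 ± 0.53 SE, edgeR adjusted p = 4.84e-07) were likewise higher in tumors. By contrast Pdgfra, which usually marks fibroblasts, read 29.9 to 51.9 CPM (median 48.4) in tumors and 51.1 and 31.3 CPM in purified cells, with overlap (log2 fold change 0.02 ± 0.26 SE, edgeR adjusted p = 0.945). Gsn, an actin-severing protein, was higher in purified cells (log2 fold change -0.72 ± 0.08 SE, edgeR adjusted p = 4.25e-06), and stood at 327 CPM in culture. Dcn, a small proteoglycan, lay between, with 142 to 260.1 CPM (median 216) in tumors, 75.3 and 75.5 CPM in purified cells and only 1.56 CPM in culture (log2 fold change 1.43 ± 0.25 SE, edgeR adjusted p = 0.00084). Of the fibroblast list, 10 of 19 tested genes were higher in tumors and 2 lower, or 1 lower without either purified library or without tumor 3 or 7. Genes that usually mark fibroblasts thus stood on both sides.

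Collagens were divided by gene and not by family. Col1a2, a chain of type I collagen, read 1091 to 1555 CPM (median 1130.4) in tumors and 2451 and 2238 CPM in purified cells, without overlap (log2 fold change -0.95 ± 0.11 SE, edgeR adjusted p = 6.42e-06). Col5a1, a chain of type V collagen, was 2.001-fold higher in purified cells (log2 fold change -1.001 ± 0.10 SE, edgeR adjusted p = 1.79e-06), and Col16a1 1.51-fold higher (log2 fold change -0.59 ± 0.08 SE, edgeR adjusted p = 2.7e-05). Col3a1, named here as a fibroblast marker, read 590.05 to 978 CPM against 937 and 894 CPM with overlap (log2 fold change -0.42 ± 0.16 SE, edgeR adjusted p = 0.0378), a call that was lost in 8 of the 9 fits that left out 1 library, all but that without tumor 5, with an adjusted p of up to 0.177. Col6a2, a chain of the microfibrillar type VI collagen, read 91.5 and 153 CPM in purified cells, 29.1 to 62.6 CPM (median 43.7) in tumors and only 3.07 CPM in culture (log2 fold change -1.51 ± 0.29 SE, edgeR adjusted p = 0.00195). Col5a2, the partner chain of Col5a1 in type V collagen, went the other way at 26.2 to 70.6 CPM (median 36.4) in tumors and 0.181 and 0.527 CPM in purified cells (log2 fold change 6.79 ± 0.77 SE, edgeR adjusted p = 9.63e-05). Of the collagen list, 7 of 12 tested genes were higher in purified cells and 3 higher in tumors. In control line 1 all of these 7 and 3 genes were called on the same side, and Col1a1, named after its values were seen, made 8 higher in purified cells, against 23.7% and 30.2% of all genes called higher in purified cells and in tumors.

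Other matrix lists differed in their balance. Of the basement membrane list 8 of 18 tested genes were higher in purified cells and 4 higher in tumors, beside 25.3% and 31.1% of all genes tested. Col4a1, the main collagen of basement membranes, read 236 to 371 CPM in tumors and 631 and 623 CPM in purified cells (log2 fold change -0.95 ± 0.12 SE, edgeR adjusted p = 2.06e-05), and the proteoglycan Agrn moved with it (log2 fold change -0.87 ± 0.09 SE, edgeR adjusted p = 1.26e-06). Lama4, a laminin chain of vessels, left 1 purified count (ratio 479, exact 95% counting interval 85.9 to 18939.9) and Nid2, a nidogen, left 0 and was at least 156-fold higher in tumors. Lox, which crosslinks collagen, read 17.9 to 47.1 CPM in tumors against 0.0906 and 0.144 CPM (log2 fold change 7.76 ± 0.87 SE, edgeR adjusted p = 7.58e-05). Postn, a matricellular protein of activated fibroblasts (log2 fold change 7.78 ± 0.87 SE, edgeR adjusted p = 7.6e-05), Tgfbi, an adhesion protein induced by TGF-beta (log2 fold change 7.05 ± 0.52 SE, edgeR adjusted p = 5.29e-06), and the proteoglycan Vcan (log2 fold change 4.09 ± 0.55 SE, edgeR adjusted p = 0.000146) were also higher in tumors. Of the matricellular and crosslinking list 10 of 16 members were higher in tumors and 1 lower. Sparc, a collagen-binding protein, was lower (log2 fold change -0.33 ± 0.11 SE, edgeR adjusted p = 0.0203), a call lost without purified replicate 1 (adjusted p = 0.139) or 2 (0.0509). Of the matrix metalloproteinases and their TIMP inhibitors 6 of 13 were higher in tumors and 1 lower, beside 31.1% and 25.3% of all genes tested. Mmp12, the macrophage elastase, read 19.2 to 84.5 CPM against 0.362 and 0.191 CPM (log2 fold change 7.47 ± 0.92 SE, edgeR adjusted p = 0.000221), whereas the inhibitor Timp2 was higher in purified cells (log2 fold change -0.44 ± 0.08 SE, edgeR adjusted p = 0.00038).

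**Figure D3:**
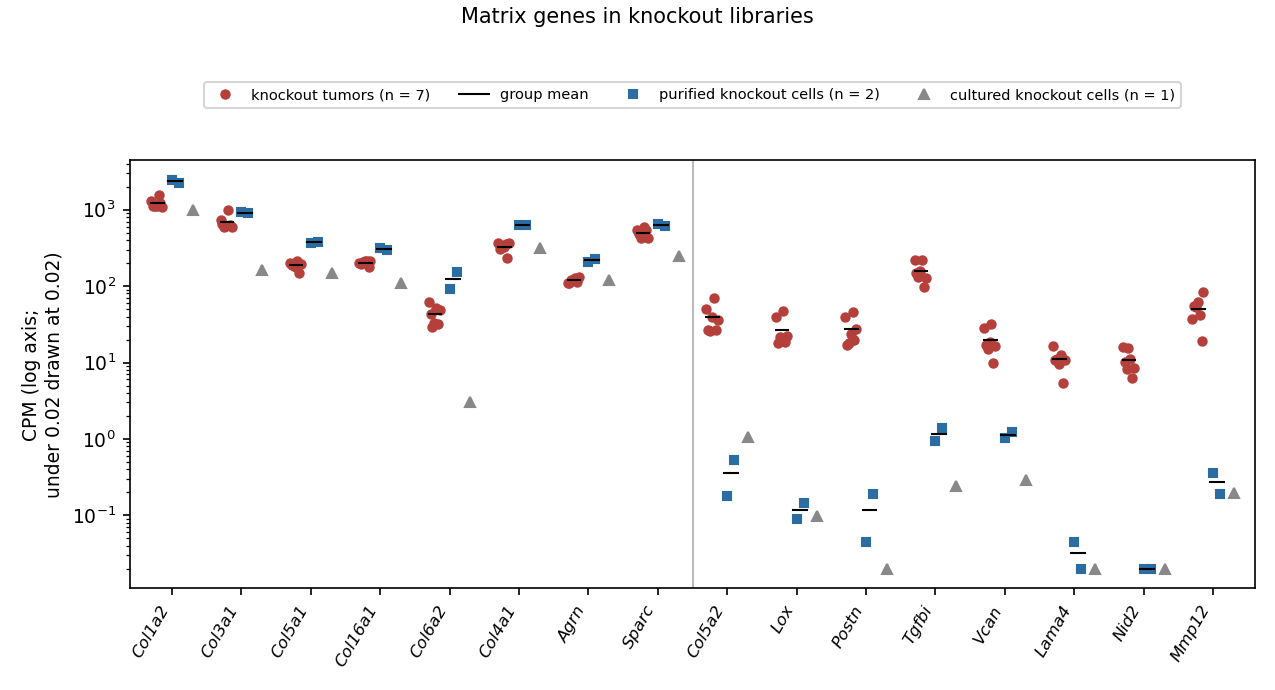
CPM on a log axis for 16 matrix genes in the knockout tumors (red), purified knockout cells (blue) and cultured knockout cells (grey), with group means as bars. Genes left of the grey line have purified levels at or above the tumor level, such as Col1a2, and genes right of it are far lower in purified cells than in tumors, such as Lox and Postn.

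Muscle, blood and skin genes were examined as signs of neighboring tissue. None of the 17 skeletal muscle genes was called by edgeR, DESeq2 or limma voom, and 0 had an unadjusted edgeR p under 0.05. Myh4, a fast muscle myosin, read 0.0627 to 17.99 CPM (median 2.36) in tumors and 0.997 and 15.9 CPM in purified cells (log2 fold change -0.96 ± 1.34 SE, edgeR adjusted p = 0.573), with tumor 1 the highest tumor and purified replicate 2 the higher purified library. Hbb-bs, a hemoglobin chain of red cells, read 3.09 to 5.33 CPM in tumors and 0 and 2.68 CPM in purified cells (log2 fold change 1.65 ± 0.81 SE, edgeR adjusted p = 0.107), the larger value again in replicate 2. It was called without that library (adjusted p = 7.17e-06). Pf4, a chemokine of platelets and also of macrophages, left 3 purified counts (ratio 129, exact 95% counting interval 44.1 to 627). The skin keratins Krt5 and Krt14 were at no more than 0.28 and 0.393 CPM in any tumor. Over all 231 tested host markers the median level remaining in purified cells was 1.37% of the tumor level. It was 0.792% without purified replicate 2 and 1.68% without replicate 1.

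The tumor cells did not carry the usual epithelial keratins. In the purified cells Krt8 and Krt18, the keratins of simple epithelium, were at 0.11 and 0.32 TPM and at 0.39 and 0.62 TPM (deposited TPM, which allow for gene length). Epcam, an adhesion protein of epithelium, and Krt19 had 0 purified counts. Vim, the intermediate filament of mesenchymal cells, which was chosen after its values were seen, was at 5099 and 5139 TPM in the same 2 libraries. Krt8, Krt18, Krt19 and Epcam were thus at or near 0 in a line labelled as colon cancer. Other epithelial genes were expressed. Of the simple epithelial list 8 of 20 members were tested, with 3 higher in purified cells and 3 in tumors. The tested members summed to 339 and 307 CPM in purified cells and 429 CPM in culture. Cdh1, E-cadherin, read 1.92 to 3.87 CPM in tumors and left 1 purified count (ratio 129, exact 95% counting interval 23.04 to 5113). Krt80, a keratin of another type, was higher in purified cells at 43.5 and 36.7 CPM (log2 fold change -0.70 ± 0.12 SE, edgeR adjusted p = 0.000194).

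Mesenchymal genes were mostly higher in purified cells. Twist1 and Twist2, transcription factors of mesenchyme, read 134 and 141 CPM and 140.3 and 137 CPM in purified cells against 75.3 to 88.04 CPM and 63.03 to 86.5 CPM in tumors (log2 fold change -0.75 ± 0.08 SE, edgeR adjusted p = 1.17e-06 for Twist1; log2 fold change -0.97 ± 0.10 SE, edgeR adjusted p = 1.64e-06 for Twist2). Snai1, a repressor of E-cadherin, read 35.02 and 32.7 CPM against 10.5 to 17.3 CPM (log2 fold change -1.20 ± 0.14 SE, edgeR adjusted p = 4.94e-06). Zeb2, a factor of the same program, was higher in tumors (log2 fold change 0.72 ± 0.13 SE, edgeR adjusted p = 0.000308), and so was S100a4, a calcium-binding protein of motile cells named after its values were seen (log2 fold change 0.61 ± 0.17 SE, edgeR adjusted p = 0.0101), a call lost without purified replicate 1 (adjusted p = 0.0682) or 2 (0.0897). Of the mesenchymal list 8 of 12 were higher in purified cells and 2 higher in tumors, with a median of -0.50.

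The 10 genes with the widest differences toward purified cells included an angiotensin precursor, a phosphatase and regulators of actin. Agt, the precursor of angiotensin, read 3.76 to 12.97 CPM (median 7.41) in tumors and 66.8 and 36.9 CPM in purified cells (log2 fold change -2.81 ± 0.39 SE, edgeR adjusted p = 0.000288). Its purified level also exceeded the 2.29 CPM of culture, and purified replicate 1 was the higher of the pair. Dusp9, a phosphatase of MAP kinases, read 22.3 to 32.96 CPM against 81.4 and 94.6 CPM (log2 fold change -1.67 ± 0.12 SE, edgeR adjusted p = 4.63e-08), and culture was higher still at 203 CPM. Fgd1, which activates Cdc42 (log2 fold change -1.51 ± 0.12 SE, edgeR adjusted p = 1.9e-07), Limk1, an actin-regulating kinase (log2 fold change -1.44 ± 0.12 SE, edgeR adjusted p = 2.6e-07), and Galnt10, which starts mucin-type sugars (log2 fold change -1.40 ± 0.15 SE, edgeR adjusted p = 3.94e-06), were 2.84-fold, 2.71-fold and 2.64-fold higher in purified cells. Igfbp4, a binder of insulin-like growth factors, read 392 and 399 CPM in purified cells against 130.3 to 188 CPM in tumors (log2 fold change -1.35 ± 0.12 SE, edgeR adjusted p = 5.88e-07). Apod, a lipid carrier (log2 fold change -1.34 ± 0.31 SE, edgeR adjusted p = 0.00559), and Sesn2, a sensor of leucine (log2 fold change -1.44 ± 0.18 SE, edgeR adjusted p = 2.11e-05), completed the list with Fosb and Col6a2. None of the 10 overlapped between groups, which was part of the rule that chose them.

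Genes of the cell cycle and of ribosome synthesis were called higher in purified cells more often than in tumors. Plk1, a mitotic kinase, read 61.1 to 70.6 CPM in tumors and 127 and 138 CPM in purified cells (log2 fold change -1.07 ± 0.08 SE, edgeR adjusted p = 4.78e-08), and Cdc20, which activates the anaphase-promoting complex, showed the same order (log2 fold change -1.02 ± 0.09 SE, edgeR adjusted p = 5.02e-07). Of the G2 and mitosis list 13 of 22 were higher in purified cells and 3 higher in tumors, the latter 5 with upper quartile scaling. Mki67, the proliferation antigen Ki-67, was among those higher in tumors (log2 fold change 0.66 ± 0.08 SE, edgeR adjusted p = 1.19e-05). Mcm2, a part of the replicative helicase (log2 fold change -0.83 ± 0.08 SE, edgeR adjusted p = 1.08e-06), stood for the S phase list, where 13 of 24 were higher in purified cells, 8 with upper quartile scaling, and 3 higher in tumors, 0 without either purified library. Ribosome biogenesis genes went the same way in 15 of 21, such as Polr1a, the large subunit of RNA polymerase I (log2 fold change -0.91 ± 0.08 SE, edgeR adjusted p = 2.75e-07), and Srm, spermidine synthase (log2 fold change -1.10 ± 0.10 SE, edgeR adjusted p = 5.28e-07). Npm1, a nucleolar chaperone, was the exception (log2 fold change 0.48 ± 0.09 SE, edgeR adjusted p = 0.000554). CPM are shares of a library, so host RNA in a tumor library lowers the CPM of every tumor cell gene, and such dilution and a change within the tumor cells cannot be told apart.

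Amino acid stress genes were higher in purified cells more often than in tumors. Shmt2, a mitochondrial enzyme of serine use, read 139.8 to 164 CPM in tumors, 278 and 313 CPM in purified cells and 601 CPM in culture (log2 fold change -0.99 ± 0.08 SE, edgeR adjusted p = 2.35e-07). Slc3a2, a partner of amino acid transporters, kept the same order (log2 fold change -0.51 ± 0.09 SE, edgeR adjusted p = 0.000178). Of the amino acid stress list 9 of 19 were higher in purified cells and 2 higher in tumors. Beside 31.1% and 25.3% of all genes tested, 6 of 17 p53 targets were higher in tumors and 6 in purified cells. Cdkn1a, the cell cycle inhibitor p21, was among those higher in purified cells (log2 fold change -0.77 ± 0.11 SE, edgeR adjusted p = 3.53e-05), and Pmaip1, the death protein Noxa, had 0 purified counts and was at least 43.4-fold higher in tumors.

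Nuclear envelope genes, the partners of the targeted gene, were also more often higher in purified cells. Lmna, which encodes lamins A and C, read 626 to 762 CPM in tumors and 1331 and 1416 CPM in purified cells (log2 fold change -0.95 ± 0.08 SE, edgeR adjusted p = 2.16e-07). Tor1aip1, an inner nuclear membrane protein (log2 fold change -0.75 ± 0.08 SE, edgeR adjusted p = 3.23e-06), and the nesprin Syne3 (log2 fold change -0.78 ± 0.12 SE, edgeR adjusted p = 9.78e-05) were also higher in purified cells. Syne1, the large nesprin that Sun1 binds, was higher in tumors (log2 fold change 0.68 ± 0.11 SE, edgeR adjusted p = 0.00013). Of the LINC and lamina list 10 of 17 were higher in purified cells, and 6 with upper quartile scaling.

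Mitochondrially encoded transcripts were lower in purified cells without exception among 13 genes. COX1, a subunit of cytochrome oxidase encoded in mitochondrial DNA, read 14279.7 to 17525 CPM in tumors and 5083 and 5851 CPM in purified cells (log2 fold change 1.48 ± 0.10 SE, edgeR adjusted p = 3.89e-08). These transcripts made up 4.33% to 5.28% of the counts in tumors, 1.59% and 1.85% in purified cells and 2.07% in culture. Nuclear genes of the same respiratory chain went the other way more often, with 11 of 23 higher in purified cells, such as Uqcrc1 of complex III (log2 fold change -1.20 ± 0.09 SE, edgeR adjusted p = 9.14e-08). Cytosolic ribosomal proteins were higher in tumors for 16 of 24, though for 10 without purified replicate 2. Rps14 was an example (log2 fold change 0.73 ± 0.10 SE, edgeR adjusted p = 3.69e-05) and Rplp0 an exception (log2 fold change -0.41 ± 0.08 SE, edgeR adjusted p = 0.000526).

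Of the hypoxia-induced list 10 of 18 members were higher in tumors and 1 lower, but 4 higher without purified replicate 2. Bnip3, a mitophagy receptor, read 183 to 325 CPM (median 278) in tumors and 119 and 50.6 CPM in purified cells, the lower in replicate 2 (log2 fold change 1.66 ± 0.35 SE, edgeR adjusted p = 0.00358). Higd1a, a mitochondrial protein (log2 fold change 1.05 ± 0.16 SE, edgeR adjusted p = 7.93e-05), was also higher in tumors. Of the glycolysis list 7 of 17 were higher in tumors, 4 without purified replicate 2, and 2 lower, 1 without replicate 1. Among those higher were Pgk1, a glycolytic enzyme (log2 fold change 0.92 ± 0.15 SE, edgeR adjusted p = 0.000229), and Slc16a3, the lactate exporter, at 23.1 to 48.4 CPM against 2.72 and 2.15 CPM (log2 fold change 4.04 ± 0.29 SE, edgeR adjusted p = 4.34e-07). Pfkfb3, which drives glycolysis, kept 3.91% of its tumor level (log2 fold change 4.68 ± 0.27 SE, edgeR adjusted p = 1.63e-08). Over all genes tested, 31.1% were higher in tumors and 25.3% in purified cells.

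Immediate early and heat shock genes respond to cell handling within minutes to hours, so they were read beside the preparation. Fosb, a member of the AP-1 family, read 10.6 to 18.7 CPM in tumors and 30.1 and 75.3 CPM in purified cells (log2 fold change -1.95 ± 0.28 SE, edgeR adjusted p = 0.000243), and 179 CPM in the cultured cells. Jun (log2 fold change -0.78 ± 0.09 SE, edgeR adjusted p = 7.13e-06) and the phosphatase Dusp1 (log2 fold change -0.99 ± 0.12 SE, edgeR adjusted p = 7.62e-06) were also higher in purified cells. Atf3, a stress-induced factor, was the reverse, with 9.15 to 15.3 CPM in tumors and 2 purified counts (ratio 268, exact 95% counting interval 73.9 to 2211). Of the immediate early list 10 of 20 were higher in purified cells, 5 of them without purified replicate 2, and 5 higher in tumors. In control line 1, with the same preparation, 2 were higher in purified cells and 10 in tumors. Hsp90ab1, a constitutive chaperone, was 2.01-fold higher in purified cells (log2 fold change -1.01 ± 0.07 SE, edgeR adjusted p = 3.96e-08), and the cochaperone Bag3 rose less (log2 fold change -0.69 ± 0.11 SE, edgeR adjusted p = 7.44e-05). Of the heat shock list 7 of 14 were higher in purified cells and 2 in tumors. In control line 1 the same list had 7 higher in tumors and 1 in purified cells. The part of handling in these differences was not tested.

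Ligands and receptors were more often higher in tumors. Both members were higher in tumors in 11 of the 46 pairs. In 3 pairs the ligand was higher in purified cells and the receptor in tumors. Of 46 pairs read, 25 of 40 receptors were higher in tumors and 5 in purified cells, against 20 and 4 of 45 ligands. The 40 and 45 include 1 receptor and 4 ligands that were not tested. Over all genes tested, 31.1% were higher in tumors and 25.3% in purified cells. Csf1, the macrophage growth factor, read 227 to 287 CPM in tumors and 393 and 438 CPM in purified cells (log2 fold change -0.70 ± 0.09 SE, edgeR adjusted p = 1.2e-05), while its receptor Csf1r was near 0 in purified cells. Vegfa, the main growth factor of vessels, overlapped at 181 to 394 CPM against 201 and 205 CPM (log2 fold change 0.50 ± 0.24 SE, edgeR adjusted p = 0.104; 0.0239 without tumor 6), and its receptor Kdr left 3 purified counts (ratio 219, exact 95% counting interval 74.7 to 1062). Cd47, a signal against phagocytosis, also overlapped (log2 fold change -0.09 ± 0.11 SE, edgeR adjusted p = 0.51), and Sirpa, which reads it on macrophages, kept 0.338% (log2 fold change 8.19 ± 0.55 SE, edgeR adjusted p = 1.64e-06). The checkpoint ligand Cd274, or PD-L1, read 57.9 to 80.99 CPM in tumors and 55.3 and 65.6 CPM in purified cells (log2 fold change 0.29 ± 0.12 SE, edgeR adjusted p = 0.0539; 0.00814 without tumor 1 and 0.0355 without tumor 6), and its receptor Pdcd1 read 13.1 to 24.8 CPM against 0.181 and 0.0479 CPM (log2 fold change 7.22 ± 0.46 SE, edgeR adjusted p = 4.65e-08).

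The opposite arrangement was found for 4 pairs, with the ligand higher in tumors and the receptor in purified cells. Gas6, a ligand of Axl, had 0 purified counts and was at least 88.6-fold higher in tumors, while Axl read 1277 and 1180.3 CPM in purified cells against 721 to 866 CPM (log2 fold change -0.58 ± 0.08 SE, edgeR adjusted p = 2.64e-05). Pdgfb, made by vessels and platelets, was at least 167-fold higher in tumors, beside Pdgfrb above. The others were Spp1 with Cd44 and Dll4 with Notch1, where the call of Notch1 was lost without purified replicate 2 (adjusted p = 0.305) or tumor 2 or 7. Il33, an alarm cytokine, was higher in tumors (log2 fold change 1.84 ± 0.50 SE, edgeR adjusted p = 0.0118), a call lost without purified replicate 1 (0.0789) or 2 (0.0931), and its receptor Il1rl1 overlapped at 324 to 482 CPM and 400.2 and 353 CPM. Cxcl9, a chemokine induced by interferon gamma, read 56.5 to 169 CPM (median 138) in tumors and 0.725 and 1.101 CPM in purified cells (log2 fold change 7.02 ± 0.71 SE, edgeR adjusted p = 6.98e-05). A pair shows where each transcript was read and not that the proteins met.

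Interferon-stimulated genes were mostly higher in purified cells and differed between genotypes. Irf7, the factor that amplifies type I interferon, read 242 to 346 CPM (median 265) in knockout tumors and 639 and 634 CPM in their purified cells (log2 fold change -1.16 ± 0.12 SE, edgeR adjusted p = 1.89e-06). Both purified libraries lay above all 7 tumors, and culture was lower than either at 153 CPM. Stat2, a carrier of the interferon signal, read 185 to 301 CPM against 417 and 449 CPM (log2 fold change -0.91 ± 0.13 SE, edgeR adjusted p = 3.47e-05), and Ifih1, a sensor of double-stranded RNA, 93.5 to 148 CPM against 241 and 225 CPM (log2 fold change -1.03 ± 0.13 SE, edgeR adjusted p = 1.38e-05). Of 25 such genes, all tested, 15 were higher in purified cells, while Ifit2 was higher in tumors (log2 fold change 0.73 ± 0.10 SE, edgeR adjusted p = 1.76e-05). The median over the list was -0.46.

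Several of these genes share a short promoter element, shown here because most of the group moved together. The interferon-stimulated response element was searched as GAAA, any 2 bases and GAAA on both strands in the 250 bases before each RefSeq start (build GRCm38.p6, the same coordinates as mm10). It was found for 8 of the 17 interferon-stimulated genes with a promoter in the table (47.1%), for 3 of 15 MHC class I genes (20%) and for 936 of 27025 genes in all (3.46%). The windows below run 5′ to 3′ on the strand of the gene, with the match nearest the start in capitals. It reads TTTC, 2 bases and TTTC where the element lies on the other strand. Overlapping matches in the Isg15 and Bst2 windows are left in lower case.
Stat2, chr10:128270251-128270310, plus strand: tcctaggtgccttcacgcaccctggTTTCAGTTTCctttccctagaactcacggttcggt
Isg15, chr4:156200850-156200909, minus strand: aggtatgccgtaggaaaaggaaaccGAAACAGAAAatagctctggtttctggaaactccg
Ifit3, chr19:34583382-34583441, plus strand: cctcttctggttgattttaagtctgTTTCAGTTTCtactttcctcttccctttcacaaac
Bst2, chr8:71537562-71537621, minus strand: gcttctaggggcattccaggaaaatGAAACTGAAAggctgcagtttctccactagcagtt
B2m, chr2:122147523-122147582, plus strand: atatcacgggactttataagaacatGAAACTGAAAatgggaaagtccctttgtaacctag
H2-T23, chr17:36032791-36032850, minus strand: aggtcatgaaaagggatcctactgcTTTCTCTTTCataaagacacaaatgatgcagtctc
The matches in capitals in these 6 windows lay between 57 and 222 bases before the start. A match is a description of letters and does not show binding. Of the genes shown, Stat2, Bst2, B2m and H2-T23 were called in the knockout comparison, Bst2 higher in purified cells (log2 fold change -0.61 ± 0.19 SE, edgeR adjusted p = 0.0191) and B2m higher in tumors (log2 fold change 0.42 ± 0.10 SE, edgeR adjusted p = 0.0025), while Isg15 (log2 fold change -0.46 ± 0.18 SE, edgeR adjusted p = 0.053) and Ifit3 (log2 fold change -0.14 ± 0.21 SE, edgeR adjusted p = 0.586) were not. Without tumor 6, which was the highest tumor for both, Isg15 and Ifit3 were called (adjusted p = 6.33e-06 and 0.00588), and without purified replicate 1 or 2 the call of Bst2 was lost (0.0831 and 0.0942).

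A motif of the myeloid and B cell factor PU.1, GAGGAAGT on either strand, was read in the same way for the host side. It was found for 1 of 10 pan-leukocyte genes, 1 of 15 macrophage genes and 755 of 27025 in all (2.79%), and for none of the 17 interferon-stimulated genes. The 2 windows with a match, from genes that fell to near 0 in purified cells, were these.
Vav1, chr17:57279064-57279099, plus strand: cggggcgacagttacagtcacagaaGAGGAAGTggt
C1qc, chr4:136893077-136893134, minus strand: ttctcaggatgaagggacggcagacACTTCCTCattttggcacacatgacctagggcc
C1qc, another C1q chain, read 255 to 539 CPM (median 369) in tumors and 1.13 and 1.101 CPM in purified cells (log2 fold change 8.42 ± 0.52 SE, edgeR adjusted p = 1.46e-06).

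The tumor-minus-purified difference was then compared with that of control line 1 by an interaction over 19 libraries, negative where purified knockout cells were relatively higher. It was called for 10.1% of 15033 genes, 726 positive and 792 negative (4.83% and 5.27%), and for 21 of the 25 interferon-stimulated genes, all negative, with a median of -0.95. In control line 1 the median tumor-minus-purified difference of these genes was 0.49. Irf7 read 179.96 ± 26.99 CPM (SD, n = 8) in control tumors and 202 and 142 CPM in their purified cells (interaction -1.22 ± 0.22 SE, edgeR adjusted p = 0.00155), and Stat2 behaved alike (interaction -1.21 ± 0.18 SE, edgeR adjusted p = 0.00021). The list summed to 6844 and 7099.8 CPM in purified knockout cells, 2790 and 2569 CPM in purified control line 1, 2801 and 2498 CPM in purified control line 2, 3916 to 6222 CPM in knockout tumors and 3193 CPM in cultured knockout cells. Without 1 purified library the count of 21 became 14 and 10 (knockout replicates 1 and 2) or 16 and 7 (control replicates 1 and 2). Over all genes the counts without 1 of these libraries were 230 to 357 positive and 316 to 485 negative. There is 1 knockout line, so the genotype and the line cannot be told apart.

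MHC class I genes shared part of that pattern. H2-D1, a classical class I chain, read 2101 to 2611 CPM (median 2167) in knockout tumors and 3619.8 and 3422 CPM in purified cells (log2 fold change -0.66 ± 0.09 SE, edgeR adjusted p = 1.38e-05), and culture was much lower at 659.8 CPM. Tap1, Psmb8 and Nlrc5 were named after their values were seen. Tap1, the peptide transporter, read 333 to 426 CPM against 503 and 499 CPM (log2 fold change -0.44 ± 0.10 SE, edgeR adjusted p = 0.00113), and the immunoproteasome subunit Psmb8 274 to 327 CPM against 398 and 449.6 CPM (log2 fold change -0.52 ± 0.09 SE, edgeR adjusted p = 0.000169). Both interactions were negative (interaction -0.53 ± 0.15 SE, edgeR adjusted p = 0.0275 for Tap1; interaction -0.87 ± 0.16 SE, edgeR adjusted p = 0.00157 for Psmb8), as was that of Nlrc5, the activator of class I genes (interaction -0.97 ± 0.14 SE, edgeR adjusted p = 0.000145). The call of Tap1 was lost without purified knockout replicate 1 or 2 (adjusted p = 0.086 and 0.0889) or control replicate 1 (0.246, interaction -0.35). H2-T23, the nonclassical Qa-1, was instead higher in tumors at 115 to 211 CPM (median 132) against 20.2 and 24.4 CPM (log2 fold change 2.70 ± 0.28 SE, edgeR adjusted p = 1.93e-05), and lower still in purified control cells at 3.28 and 3.42 CPM (interaction -2.60 ± 0.39 SE, edgeR adjusted p = 0.000638). Near-identical class I genes share reads, so values for single H2 genes are uncertain. Of 17 genes 8 were higher in purified knockout cells and 3 in tumors, and the interaction was called for 9, but for 4 and 3 without knockout purified replicates 1 and 2 and for 3 without control purified replicate 1. Cd274 had an interaction of the same sign (interaction -1.78 ± 0.34 SE, edgeR adjusted p = 0.00387), with 12.7 and 21.1 CPM in purified control cells.

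**Figure D4:**
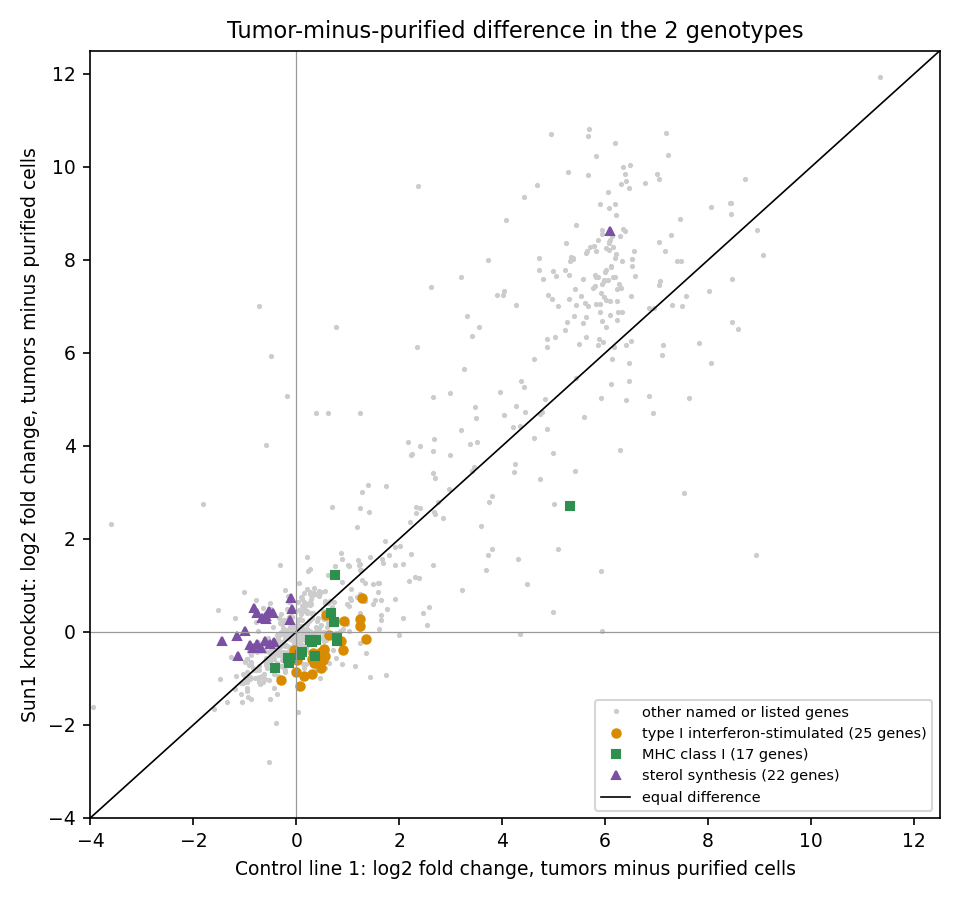
Log2 fold change of tumors minus purified cells in control line 1 (horizontal) and in the Sun1 knockout (vertical) for the named and listed genes, each point 1 gene, with the line of equal difference. Most interferon-stimulated genes (orange) lie below the line with a knockout value under 0, sterol synthesis genes (purple) lie above it, and most other genes with large values on both axes also lie above it.

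Sterol synthesis genes differed in the opposite sense. Ebp, a sterol isomerase, read 20.4 to 27.2 CPM in knockout tumors and 17.8 and 17.8 CPM in purified cells (log2 fold change 0.45 ± 0.13 SE, edgeR adjusted p = 0.00735), but 35.2 ± 4.55 CPM (SD, n = 8) and 49.4 and 53.002 CPM in control line 1 (interaction 1.00 ± 0.18 SE, edgeR adjusted p = 0.00119). The knockout difference alone was not called without purified replicate 1 (adjusted p = 0.0622) or 2 (0.0659). Of 22 genes 9 had a positive interaction, a count that was 15 and 1 without purified knockout replicates 1 and 2, and 5 and 2 without control replicates 1 and 2.

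The widest interactions fell on single genes. Cask, a scaffold kinase, read 2.63 to 6.42 CPM in knockout tumors and 0.136 and 0 CPM in purified cells, against 21.7 and 21.5 CPM in purified control cells (interaction 6.44 ± 0.52 SE, edgeR adjusted p = 2.24e-08). Prkx, a protein kinase, showed the same order (interaction 5.79 ± 0.44 SE, edgeR adjusted p = 5.99e-09), as did the matrix proteins Cilp (interaction 7.75 ± 1.78 SE, edgeR adjusted p = 0.0123) and Mfap4 (interaction 5.94 ± 1.02 SE, edgeR adjusted p = 0.00143) and the RNA-binding Bicc1, which had 0 purified knockout counts (3.81 with the knockout difference at the floor of 3 counts, edgeR adjusted p = 0.00248). On the other side, Sfmbt2, a chromatin protein, read 6.93 to 10.03 CPM in knockout tumors and 7.203 and 8.95 CPM in purified cells, against 0.119 and 0.0519 CPM in purified control cells, where 3 counts were left in all (interaction -5.91 ± 0.43 SE, edgeR adjusted p = 4.28e-09). Mmp3, or stromelysin, read 33.6 to 58.03 CPM and 33.7 and 32.6 CPM in the knockout and 3.34 and 2.64 CPM in purified control cells (interaction -4.53 ± 0.35 SE, edgeR adjusted p = 2.58e-07). Timp3 (interaction -3.29 ± 0.41 SE, edgeR adjusted p = 7.17e-05), Enpp2, which makes lysophosphatidic acid (interaction -3.45 ± 0.54 SE, edgeR adjusted p = 0.000446), and Akr1c18 (interaction -4.38 ± 1.13 SE, edgeR adjusted p = 0.023) completed the list. Genes such as Cask and Sfmbt2 were thus near 0 in the purified cells of 1 line and expressed in those of the other. Bicc1 was the weakest case, with only 0.477 and 0.519 CPM in purified control cells. Without purified knockout replicate 1 or 2 the call of Cilp was lost (adjusted p = 0.0891 and 0.0771), and that of Akr1c18 without any of the purified libraries except knockout replicate 2.

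Nsd1, an H3K36 methyltransferase, was nearly confined to whole tumors. It read 18.6 to 27.3 CPM (median 25.2) in knockout tumors, 0.68 and 0.766 CPM in purified cells and 0.39 CPM in culture (log2 fold change 5.08 ± 0.22 SE, edgeR adjusted p = 3.6e-10). Control tumors read 112 ± 12.7 CPM (SD, n = 8) while their purified cells read 1.01 and 0.933 CPM (interaction -1.76 ± 0.38 SE, edgeR adjusted p = 0.00451), a call lost without purified knockout replicate 2 (0.0586). The other methyltransferases of the list were near equal or slightly higher in purified cells, such as Smyd2 (log2 fold change -0.43 ± 0.09 SE, edgeR adjusted p = 0.00117).

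The widest spreads among the 7 knockout tumors were in host lists, muscle genes among them, but not every host list spread widely. T cell genes ranged over 0.56 log2 units and endothelial genes over 0.73. Fibrillar and associated collagen genes ranged over 0.945 and hypoxia-induced genes over 0.92. Macrophage genes had a mean log2 CPM of 5.83 in tumor 6 and 6.49 to 7.17 in the others, and hypoxia genes 5.50 against 6.03 to 6.41. Tumor 6 was the lowest of the 7 for 13 of the 21 host cell lists, and tumors 1 and 5 were the highest for 8 each. Tumor 6 was also the highest for 2 of them, natural killer genes (3.00) and cytotoxic effector genes (5.05). Cytotoxic effector genes were lowest in tumor 1, at 3.09 against 4.21 to 5.05. Skeletal muscle genes ranged over 4.66 log2 units, from -1.50 in tumor 6 to 3.16 in tumor 1. The mitotic list, in contrast, spread over 0.16 log2 units.

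**Figure D5:**
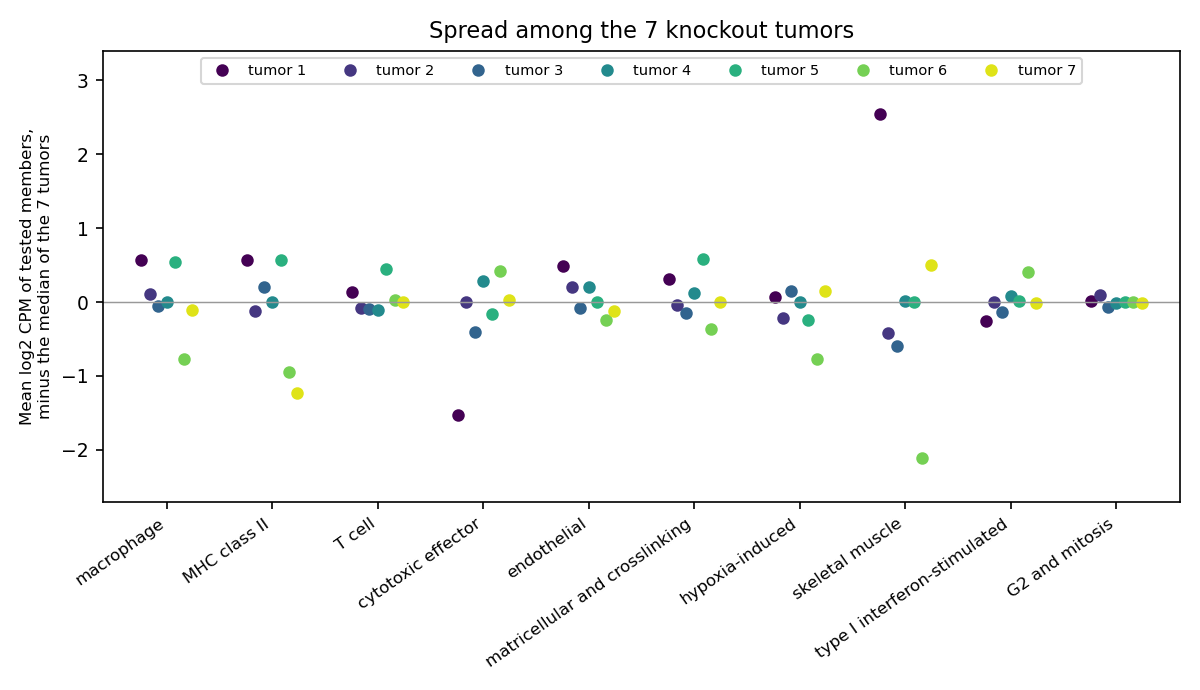
Mean log2 CPM of the tested members of 10 gene lists in each of the 7 knockout tumors, as the difference from the median of the 7. Skeletal muscle genes spread most, tumor 1 is the lowest for cytotoxic effector genes, tumor 6 is the lowest for macrophage and hypoxia-induced genes, and the G2 and mitosis list shows little spread.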

How the data were processed

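RNA from mouse CT26 tumors and cells was enriched for mRNA and sequenced in pairs, per the labels' protocols. The submitters' processing notes name FastQC, STAR, RSEM, DESeq2 and mm10, with no role or version. The deposited per-library tables hold RSEM expected counts and length-scaled transcript shares (TPM) for 35976 genes. The authors' deposited expected counts were rounded to whole numbers and tested here with edgeR 4.0.16 (quasi-likelihood, robust, TMM scaling, Benjamini-Hochberg adjustment, threshold 0.05). The filter required a minimum count of 10 and a total of 15 in edgeR's filterByExpr. The deposited TPM were used only to compare levels between genes. Groups came from the sample titles, and the comparisons and the rule for named genes (the 10 widest per direction, 5 per direction for the interaction, 4 per list, markers, ligands and receptors) are those of the tests reported above. The members and gene lists were chosen with earlier results of these data known. A few genes that the rule covers are not reported here.

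The interaction is the knockout difference minus that of control line 1 over 19 libraries, with 1 mean for each of 4 groups. The level remaining is the mean CPM of purified cells as a percentage of the mean CPM of tumors. For genes with 0 purified counts a floor of 3 counts over both libraries gave the bound, and exact 95% intervals for 1 to 3 counts cover counting error only. Alternatives were other scalings, filters, DESeq2 1.42.0, limma voom 3.58.1, all 24 libraries in 1 fit, a replicate block, a fold threshold of 2 and leaving out libraries. Tested on simulated data, the knockout fit recovered 37.9%, 71% and 93.9% of 1.5-, 2- and 4-fold changes among 14229 genes, and the interaction 14.1%, 53.1% and 81.5% among 14626. Of the simulated calls 5.07% and 4% fell on unchanged genes. The simulation changed few genes, evenly in both directions from 1 mean per gene. It did not mimic the many and uneven differences of these data, where recovery may differ. Counts of no 2 knockout replicates agreed within sampling noise (chi-square per gene 7.38 to 34.8 between tumors and 12.9 between purified libraries). The authors' 3 tables of comparisons were not used here.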

Additional observations from a re-analysis of the deposited data

Results flagged for a closer look

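A single knockout tumor lay far from the other 6 for 19 of the 175 named genes that averaged 1 CPM or more in tumors and for 6 of 47 gene lists, where chance flags about 1 in 20 groups. Tumor 6 was low, in CPM against the range of the others, for Axl (721 against 813 to 866), Cdc20 (104 against 129 to 145), Slc16a3 (23.1 against 39.5 to 48.4), Vim (3696 against 4474 to 4857) and Zeb2 (93.6 against 130.3 to 141). It was high for Bst2 (1363 against 737 to 911), Ifit3 (220.2 against 114 to 138), Isg15 (211 against 117 to 142) and Mki67 (343 against 298 to 314). Tumor 5 was high for Ccl5 (17.7 against 10.5 to 12.99), Col1a1 (592 against 239 to 376), Col3a1 (978 against 590.05 to 729), H2-D1 (2611 against 2101 to 2231), Pdgfrb (97.9 against 80.9 to 88.1), Plk1 (70.6 against 61.1 to 62.8), Rac2 (80.8 against 49.3 to 61.8) and Tbx21 (5.61 against 2.01 to 3.35). Tumor 1 was high for Egfl7 (13.7 against 8.08 to 10.5) and Myh4 (17.99 against 0.0627 to 3.51). In mean log2 CPM over a list, tumor 6 was low for neutrophil genes (-0.089 against 0.95 to 1.51), basement membrane genes (4.86 against 5.48 to 5.73), glycolysis genes (8.36 against 8.72 to 8.91), hypoxia-induced genes (5.50 against 6.03 to 6.41) and H3K36 methyltransferase genes (5.20 against 5.43 to 5.58). Tumor 1 was low for cytotoxic effector genes (3.09 against 4.21 to 5.05).

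The tumor-minus-purified difference of the knockout departed from that of control line 1, by the edgeR interaction, for 46 of 179 named genes. Over all genes tested 10.1% were called. The named genes include 5 per direction chosen because their interaction was called, and some named after their values were seen. Their share therefore cannot be set against that of all genes. Among interferon-stimulated genes, MHC class I genes and Cd274 the interaction, on the log2 scale, was Irf7 -1.22, Stat2 -1.21, Ifih1 -0.71, Ifit2 -0.53, Ifit3 -1.49, Bst2 -1.09, H2-D1 -0.50, H2-T23 -2.60, Tap1 -0.53, Psmb8 -0.87, Nlrc5 -0.97 and Cd274 -1.78. For host cell and matrix genes it was Ptprc 2.40, Lcp1 1.86, Msr1 3.02, Pecam1 1.76, Klrd1 4.96, Col5a2 3.49 and Dcn 1.75. In the purified cells of control line 1 more of the tumor level was left at the median gene for most host lists. It was 1.80% against 0.508% in the knockout for pan-leukocyte genes, 1.42% against 0.379% for macrophage and 1.66% against 0.815% for endothelial genes. The reverse held for MHC class II genes (1.98% against 4.02%). It also held for the neutrophil, erythrocyte and platelet, pericyte and smooth muscle, skeletal muscle and Schwann cell lists. The part of these remainders in the interactions was not tested. For mesenchymal and other genes of the tumor cells the interaction was Twist1 -0.48, Snai1 -0.76, Axl -0.59, Krt80 -0.86, Agt -2.26, Cdkn1a -0.91, Cdc20 0.48, Rps14 0.63, Vegfa -1.24, Il1rl1 -0.83 and Tcf7 -2.04. For immediate early genes it was Fosb -1.53 and Dusp1 -1.43. For sterol synthesis genes it was Ebp 1.00. The genes with the widest values were Cask 6.44, Prkx 5.79, Cilp 7.75, Mfap4 5.94, Sfmbt2 -5.91, Mmp3 -4.53, Timp3 -3.29, Enpp2 -3.45 and Akr1c18 -4.38. For Nsd1 it was -1.76. For genes with 0 purified knockout counts the fitted value depends on the prior count, so the knockout difference was set to the floor of 3 counts, which gave Bicc1 3.81, Nid2 2.34 and Pdgfb 1.70. In the 4 fits that each left out 1 purified library, 14 of the 46 calls were lost in every fit, with adjusted p from 0.0515 to 0.236, namely Agt, Cdc20, Col5a2, Ifit2, Il1rl1, Klrd1, Msr1, Nid2, Pdgfb, Pecam1, Ptprc, Rps14, Snai1 and Twist1. Another 12 were lost in 1 to 3 of the fits, namely Akr1c18, Bst2, Cilp, Fosb, H2-D1, Ifih1, Ifit3, Lcp1, Nsd1, Tap1, Tcf7 and Vegfa. The other 20 calls were kept in all 4 fits. Without 1 library the value of Agt ranged from -2.89 to -1.78, that of Klrd1 from 4.08 to 7.15, and that of Fosb from -2.06 to -0.74.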

How the results depend on the processing

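Under every alternative named in the processing summary the counts of genes higher and lower in knockout tumors stayed within 1.5 times the 4536 and 3683 reported, except in the test against a fold of 2, which left 1904 and 23 because it asks for a larger difference. Upper quartile scaling moved the median of all genes by 0.11 on the log2 scale and gave 5279 higher and 2826 lower, so that 65.1% of calls were higher. Leaving out 1 library gave 3373 to 4857 higher and 2852 to 3921 lower. The interaction counts of 726 and 792 moved when 1 purified library was left out, to 230 to 357 positive and 316 to 485 negative, and without either library of the knockout or of control line 1 a group held 1 sample that was assumed to vary like the others. The remaining fits kept them within 1.5 times.

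Whether replicate numbers pair the samples is not given by the labels and could not be settled here. Same-numbered tumors and purified cells had correlations of deviations of -0.05 and -0.05. With 2 purified libraries these values carry little information on pairing. With the replicate block 4105 genes were higher and 3514 lower, with 714 and 803 for the interaction. Under the replicate block the calls of Agt, Col6a2, Enpp2 and Mmp3 were lost (edgeR adjusted p = 0.257, 0.330, 0.335 and 0.461), and 2 skeletal muscle genes were called, both higher in tumors.

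Among the 176 named genes, 3097 of 3281 alternative values kept direction and call, 132 kept the direction and lost the call, 25 gained it and 27 changed sign. The sign changed for genes not called in the knockout comparison, and the cause was not tested. With upper quartile scaling the log2 values were 0.0597 for Akr1c18, 0.021 for Cd47 and 0.0514 for Tcf7. With no filter Pdgfra was -0.005 and Sfmbt2 -0.0109. With at least 10 counts in every group mean Akr1c18 was 0.0236 and Tcf7 0.0171, and with limma voom Akr1c18 was 0.0968. With the replicate block they were 0.29 for Akr1c18, -0.0255 for Il1rl1, 0.25 for Myh4, -0.0152 for Sfmbt2 and 0.30 for Tcf7. Leaving out 1 library gave -0.69 to 1.07 for Akr1c18, -0.0561 to 0.13 for Il1rl1, -2.04 to 2.09 for Myh4, -0.31 to 0.41 for Pdgfra, -0.15 to 0.16 for Sfmbt2 and -0.35 to 0.27 for Tcf7. Depth limits genes with few purified counts, whose ratios carry wide counting intervals, and 2 purified libraries limit every comparison.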
